A study of Homo sapiens with 6 samples.

Results

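The genes described here are 10 transporters that carry amino acids across the plasma membrane: SLC7A5, SLC3A2, SLC1A5, SLC1A4, SLC38A1, SLC38A2, SLC7A1, SLC6A9, SLC43A1 and SLC7A6. They were chosen by name from the 58233 genes of the deposited tables, and each averaged 1 FPKM or more (a level per length of transcript and per depth of library), so that all 10 were among the 12853 genes tested. RNA was sequenced from cells labelled Huh7, a human hepatocellular carcinoma line. The cells of 3 libraries had been transfected with a plasmid that overexpresses TP53TG1, a long noncoding RNA, and those of the other 3 with a control plasmid, whose content the labels do not give. Groups are called TP53TG1 and control, and replicates carry the numbers 1 to 3 in both. The labels give no time after transfection, no plasmid dose and no transfection efficiency, and do not say whether replicates were separate cultures, so p-values measure the spread between these libraries, which may be technical.

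Amino acid transporters include exchangers, which swap an amino acid for another, and concentrating carriers driven by the sodium gradient. SLC7A5 (LAT1) is a light chain that imports leucine and other large neutral amino acids in exchange for glutamine, and it reaches the membrane bound to the heavy chain SLC3A2 (4F2hc, CD98). SLC1A5 (ASCT2) and SLC38A2 (SNAT2) bring in glutamine and other small neutral amino acids, and leucine and glutamine in turn feed the mTORC1 growth pathway. When amino acids run short, the kinase GCN2 raises translation of the transcription factor ATF4, which activates many transporter genes together with amino acid synthesis enzymes. Tumour cell lines, those of liver included, commonly express SLC7A5 and SLC1A5 at high levels.

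TP53TG1 itself, read first as a check of the labels, lay between 69.8 and 134 FPKM in the TP53TG1 libraries and between 5.25 and 10.6 FPKM in the controls. The FPKM of a library summed to 599081 in TP53TG1 replicate 1 and to between 620968 and 890541 in the other 5. Median-of-ratios factors, which put libraries on one scale, were 0.601 in TP53TG1 replicate 1 and 1.01 to 1.19 in the other 5. Unscaled, the tested genes had a median log2 fold change of -0.35, and 91.4% of them were lower with TP53TG1, against 50.4% with scaling, so each member is given on both scales. If the most common step of low values is 1 fragment, the libraries held about 10800000 to 13800000 fragments. The label Huh7 was checked against hepatocyte markers. Genes of secreted liver proteins were low, with ALB between 0.53 and 1.22 FPKM, AFP between 0.63 and 3.49, APOB between 0.20 and 2.41, APOA1 between 0.18 and 0.43 and TTR between 0 and 0.17, while TF reached 10.2 FPKM. The transcription factor genes HNF4A and FOXA2, both active in liver, lay at 2.57 to 14.98 and at 11.3 to 39.1 FPKM. The intestinal genes KRT20 and CDX2, fixed as markers of other cells, lay at 51.1 to 171 and 4.71 to 10.2 FPKM, and PTPRC of leukocytes at 0 to 0.13 FPKM. VIM, a mesenchymal filament gene, lay at 87.3 to 140, PECAM1 of endothelium at 1.02 to 5.72 and the collagen gene COL1A1 at 1.81 to 10.9 FPKM. The low ALB and AFP beside KRT20 go against the label, so the cells are called by their label only.

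No member passed the test of TP53TG1 against control. By limma with Benjamini-Hochberg adjustment over all tested genes, 0 of 10 members were called, and the background was as empty, with 0.0% of tested genes called lower and 0.00778% called higher. At an unadjusted p under 0.05 there were 2 members, SLC1A5 and SLC6A9, both lower, where 1.91% of all tested genes were lower and 0.436% higher. With median-of-ratios scaling there were 0 such members, against 0.406% of tested genes lower and 0.742% higher, and after adjustment 0 members, against 0.0% lower and 0.0156% higher. The median log2 fold change of the 10 was -0.60, which lay -0.25 from that of the tested genes, and 9 of 10 lay below that median. Adding the replicate number as a block to the limma fit called 2 members lower, SLC1A4 (adjusted p = 0.00266) and SLC6A9 (adjusted p = 0.0173), where 0.91% of tested genes were called lower and 0.584% higher. That fit had an infinite prior, so its variances came from the trend over all genes and not from each gene's own spread. The SE was 0.337 for both members. With median-of-ratios scaling added to the block, limma called 0 of 10 (0.0% of tested genes lower, 0.0469% higher). Among the markers of other cells, 5 of 6 were tested and 0 passed, but the groups of COL1A1 and KRT20 did not overlap. This is without scaling, where the groups of 0.428% of tested genes lay apart and higher, as for COL1A1. Those of 13.3% lay apart and lower, as for KRT20. COL1A1 had 10.88, 3.05 and 3.19 FPKM in TP53TG1, against 2.79, 1.81 and 2.85 FPKM in control (log2 fold change 0.77, and 1.104 with scaling, limma adjusted p = 0.748 and 1.00). KRT20 had 51.1, 112 and 83.8 FPKM in TP53TG1, against 171, 151 and 117 FPKM in control (log2 fold change -0.88, and -0.47 with scaling, with the same adjusted p values by limma). Their part in the members' differences was not tested. In these bulk libraries, less of an RNA per cell and fewer cells that make it cannot be told apart.

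**Figure D1:**
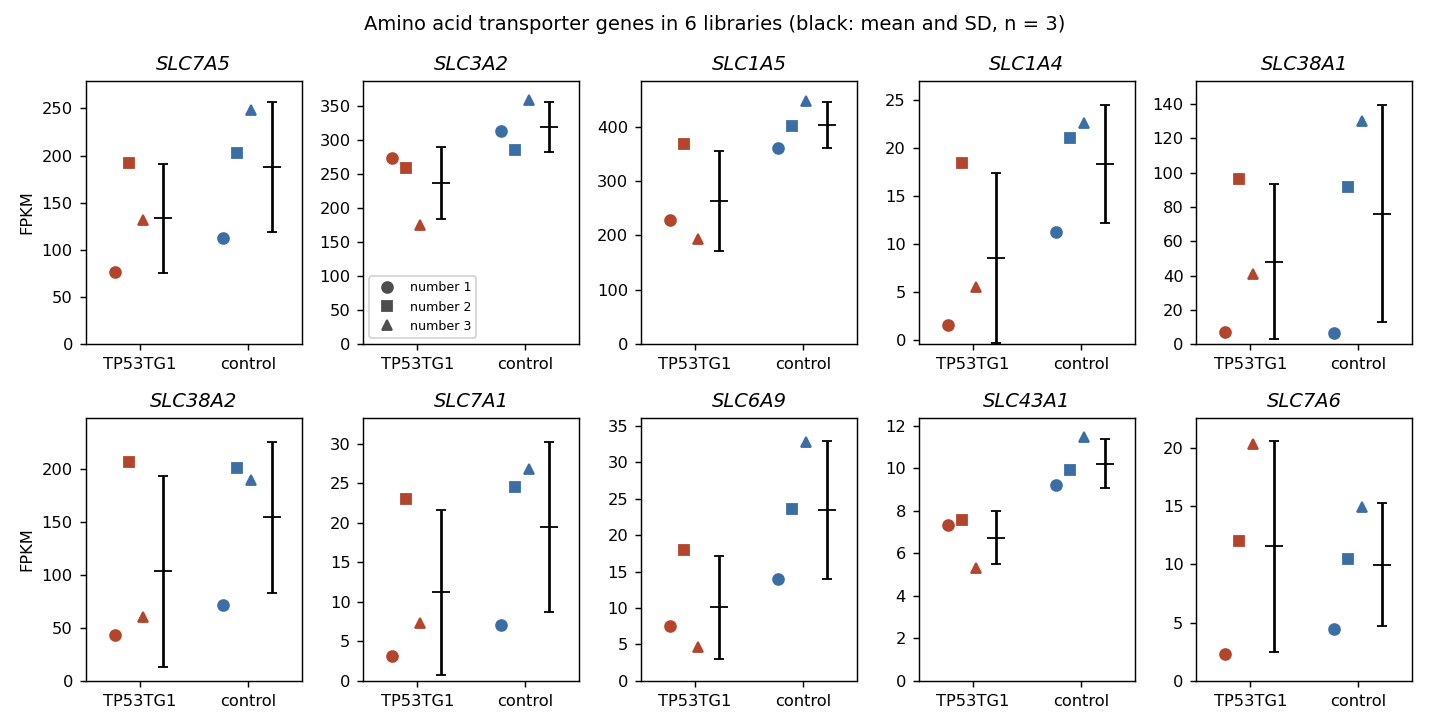
FPKM of each member in the 6 libraries, TP53TG1 on the left and control on the right of each panel, with the marker shape giving the replicate number and black bars the mean and SD (n = 3). TP53TG1 replicate 2 lies near the controls for most genes, and TP53TG1 replicates 1 and 3 lie lower. The lower end of the SD bar of SLC1A4 in TP53TG1 falls below 0 because of its spread.

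The light chain SLC7A5 (chr16:87830023-87869488, minus strand, GRCh38) stood at 76.8, 192 and 132 FPKM in TP53TG1 replicates 1 to 3, against 112, 202 and 248 FPKM in controls 1 to 3. The groups overlapped, and without scaling each TP53TG1 library was below the control of its own number, as were 94.6%, 67.3% and 69.2% of all tested genes in pairs 1 to 3. With scaling its ratios of TP53TG1 to control were 1.26, 1.02 and 0.626. The mean was 134 ± 57.8 FPKM in TP53TG1 and 188 ± 69.1 FPKM in control (SD, n = 3 each). The log2 fold change of SLC7A5, taken on FPKM + 1, was -0.51 (SE 0.409, 95% interval -1.43 to 0.42, limma adjusted p = 0.748), and -0.10 with median-of-ratios scaling. By exact permutation, two-sided, p was 0.4, where 0.1 is the smallest that 3 against 3 libraries allow.

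The heavy chain SLC3A2 (chr11:62856102-62888875, plus strand) had 274, 260 and 176 FPKM in the TP53TG1 libraries, against 314, 286 and 360 FPKM in the controls. The groups did not overlap, and TP53TG1 replicate 3 was the lowest. SLC3A2 had a log2 fold change of -0.45 (SE 0.261, 95% interval -1.05 to 0.14, limma adjusted p = 0.748), which was -0.047 with scaling, and the exact permutation p was 0.1. SLC43A1 (LAT3), a sodium-independent leucine carrier that needs no heavy chain (chr11:57484534-57515786, minus strand), was the other member whose groups did not overlap. It had 7.32, 7.57 and 5.29 FPKM in TP53TG1, against 9.23, 9.91 and 11.5 FPKM in control, with a log2 fold change of -0.54 (SE 0.324, limma adjusted p = 0.748), which was -0.17 with scaling, and an exact permutation p of 0.1. The 2 members are to be read against 13.3% of tested genes that did not overlap in the same direction without scaling, where 0.428% did so in the other. With scaling 0 of 10 members had groups that did not overlap, against 2.0% of tested genes lower and 2.03% higher.

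Since SLC7A5 works as a pair with SLC3A2, their ratio was taken within each library, where scaling cancels out. Differences that go with transcript length do not cancel, and the mean length weighted by FPKM was 4340 nt for SLC7A5 and 1847 nt for SLC3A2. SLC7A5 stood at 0.281, 0.740 and 0.751 of SLC3A2 in TP53TG1 replicates 1 to 3, against 0.358, 0.706 and 0.690 in the controls. Both libraries numbered 1 were low. In numbers 2 and 3 the ratio was higher in both groups, and there TP53TG1 lay slightly above control. The difference in log2 ratio was -0.053 (exact two-sided permutation p = 1.0, smallest possible 0.1). It turned to 0.41 without TP53TG1 replicate 1, to 0.12 without control replicate 2 and to 0.098 without control replicate 3.

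SLC7A6 (y+LAT2), which exchanges cationic for neutral amino acids and also binds SLC3A2 (chr16:68264516-68301823, plus strand), differed from the others in its order of libraries. It had 2.30, 11.98 and 20.4 FPKM in TP53TG1, against 4.47, 10.5 and 14.95 FPKM in control. It was lower with TP53TG1 in the pair numbered 1 and higher in those numbered 2 and 3. The log2 fold change was -0.044 (SE 0.692, 95% interval -1.61 to 1.53, limma adjusted p = 0.972) and turned to 0.28 with scaling, while the ratio of its means was 1.16. The exons of SLC7A6 share 3371 bases with SLC7A6OS on the opposite strand (1.95 to 5.91 FPKM), and whether the libraries keep the strand is not stated in the labels.

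The sodium-coupled exchangers of small neutral amino acids differed in level by an order of magnitude. SLC1A5 (chr19:46774883-46788594, minus strand) was the highest member in the controls, at 228, 367 and 194 FPKM in TP53TG1, against 361, 401 and 447 FPKM in control. The groups overlapped by 1 library, TP53TG1 replicate 2. For SLC1A5 the log2 fold change was -0.66 (SE 0.288, 95% interval -1.32 to -0.01, limma adjusted p = 0.748), and -0.26 with scaling. SLC1A4 (ASCT1), which carries serine, alanine and cysteine (chr2:64988477-65023865, plus strand), had 1.55, 18.5 and 5.49 FPKM in TP53TG1, against 11.3, 21.1 and 22.6 FPKM in control. TP53TG1 replicates 1 and 3 were below all controls and replicate 2 was inside their range. SLC1A4 had the lowest log2 fold change of the 10, -1.44 (SE 0.674, 95% interval -2.97 to 0.09, limma adjusted p = 0.748), and -1.12 with scaling. Its lowest value, 1.55 FPKM, rests on about 72.4 fragments if the step above is 1 fragment.

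The concentrating carriers of glutamine and alanine, SLC38A1 (SNAT1) and SLC38A2, lie near each other on chromosome 12. SLC38A1 (chr12:46183063-46270017, minus strand) had 6.87, 96.5 and 40.6 FPKM in TP53TG1, against 6.72, 91.4 and 130 FPKM in control. Both libraries numbered 1 were under 7 FPKM, and without scaling the ratio of TP53TG1 to control was 1.02 in pair 1 and 1.055 in pair 2. With scaling it was 1.89 and 1.14, the first being the highest of the members in that pair. For SLC38A1 the log2 fold change was -0.52 (SE 1.15, 95% interval -3.13 to 2.09, limma adjusted p = 0.809), the widest interval of the 10, and -0.14 with scaling. It turned to 0.49 without TP53TG1 replicate 1 and to 0.25 without control replicate 3. SLC38A2 (chr12:46358189-46372867, minus strand), a transporter known to be induced when amino acids are scarce, had 43.0, 207 and 60.3 FPKM in TP53TG1, against 72.0, 201 and 190 FPKM in control. Its groups overlapped, with replicates 2 alike and replicate 3 far lower with TP53TG1. The log2 fold change of SLC38A2 was -0.78 (SE 0.603, limma adjusted p = 0.748), and -0.37 with scaling.

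The carriers of arginine and glycine were also lowest in TP53TG1 libraries, SLC7A1 in replicate 1 and SLC6A9 in replicate 3. SLC7A1 (CAT1), which imports arginine and lysine (chr13:29509410-29595688, minus strand), had 3.17, 23.1 and 7.37 FPKM in TP53TG1, against 7.13, 24.6 and 26.8 FPKM in control. Its log2 fold change was -0.93 (SE 0.691, limma adjusted p = 0.748), and -0.58 with scaling. SLC6A9 (GLYT1), the sodium- and chloride-dependent glycine carrier (chr1:43991500-44031467, minus strand), had 7.58, 18.0 and 4.65 FPKM in TP53TG1, against 13.9, 23.6 and 32.8 FPKM in control. TP53TG1 replicate 2 lay among the controls and the other 2 lay below them. Its log2 fold change was -1.25 (SE 0.504, 95% interval -2.39 to -0.11, limma adjusted p = 0.748), and -0.87 with scaling. Over the fits and alternatives run, its adjusted p lay between 0.0173 and 1.0, and that of SLC1A4 between 0.00266 and 1.0.

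**Figure D2:**
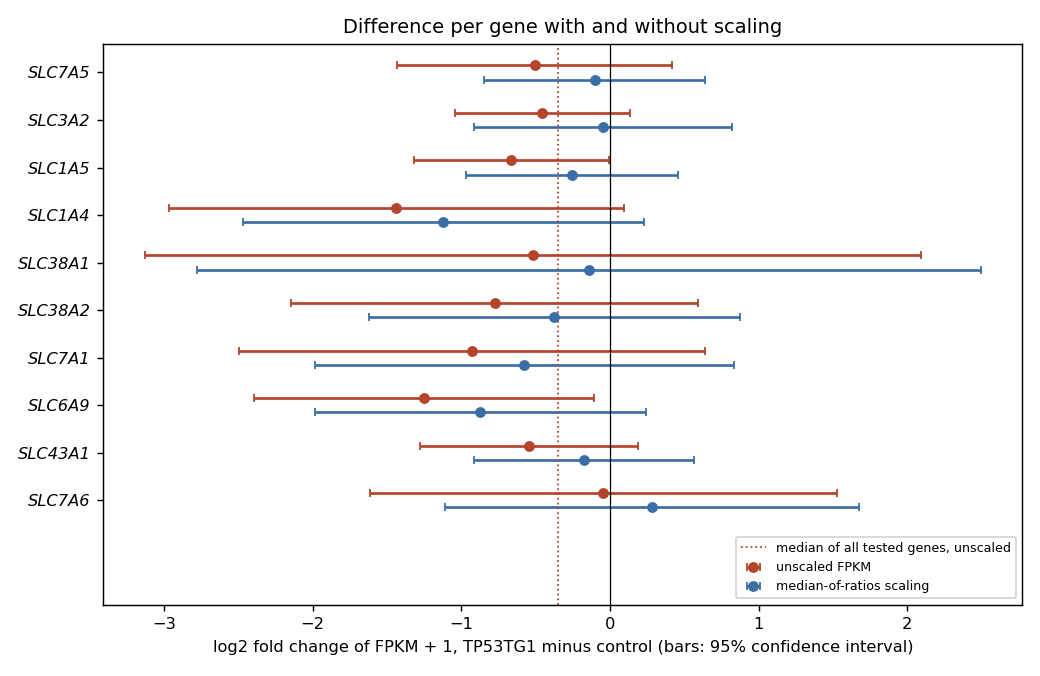
Log2 fold change of FPKM + 1 for each member, TP53TG1 minus control, with 95% confidence intervals, without scaling (red) and with median-of-ratios scaling (blue). The dotted line is the median of all tested genes without scaling, -0.35. With scaling every interval includes 0.

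By level, SLC1A5 led in the controls at 403 ± 43.0 FPKM, followed by SLC3A2 at 320 ± 37.1 FPKM and SLC7A5 at 188 ± 69.1 FPKM (SD, n = 3 each). The control ranges of SLC1A5 and SLC3A2 did not overlap, nor did those of SLC3A2 and SLC7A5. From SLC7A5 down to SLC7A6, at 9.97 ± 5.26 FPKM, each gene overlapped the next. In the TP53TG1 libraries all 9 neighbours in this order overlapped. The 10 members together held 0.109%, 0.194% and 0.103% of all FPKM in TP53TG1 replicates 1 to 3, against 0.102%, 0.187% and 0.222% in the controls. With median-of-ratios scaling the sums were 1082, 1089 and 642 in TP53TG1, against 820.8, 1070 and 1254 in the controls. TP53TG1 replicate 3 and control replicate 1 were thus low by both measures and TP53TG1 replicate 1 only as a share of all FPKM.

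Taken within replicate numbers and with scaling, most of the 10 genes lay below the lower quartile of the tested genes in 1 pair. In the pair numbered 3, 9 of 10 members were lower with TP53TG1, where 50.4% of all tested genes were lower. The members had a median ratio of TP53TG1 to control of 0.442, where the median of all tested genes was 0.997. All 9 lay below the lower quartile of the tested genes, 0.765. The ratios ran from 0.167 for SLC6A9 to 0.626 for SLC7A5, and SLC7A6 was the exception at 1.601. In the pair numbered 1 the median was 1.14 and 3 of 10 were lower, against 50.3% of all tested genes. In the pair numbered 2 it was 0.998 and 5 of 10 were lower, against 52.8%. SLC1A4 was low in 2 pairs, at 0.254 of the control in the pair numbered 1, 0.943 in that numbered 2 and 0.285 in that numbered 3. Each pair has 1 library per group, so the pairs have no replicate check and were not tested. The labels do not say that libraries of the same number belong together. On the same scale TP53TG1 itself was 12.2, 27.5 and 13.5 times its control in pairs 1 to 3, and 6.61, 25.6 and 11.5 times without scaling.

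**Figure D3:**
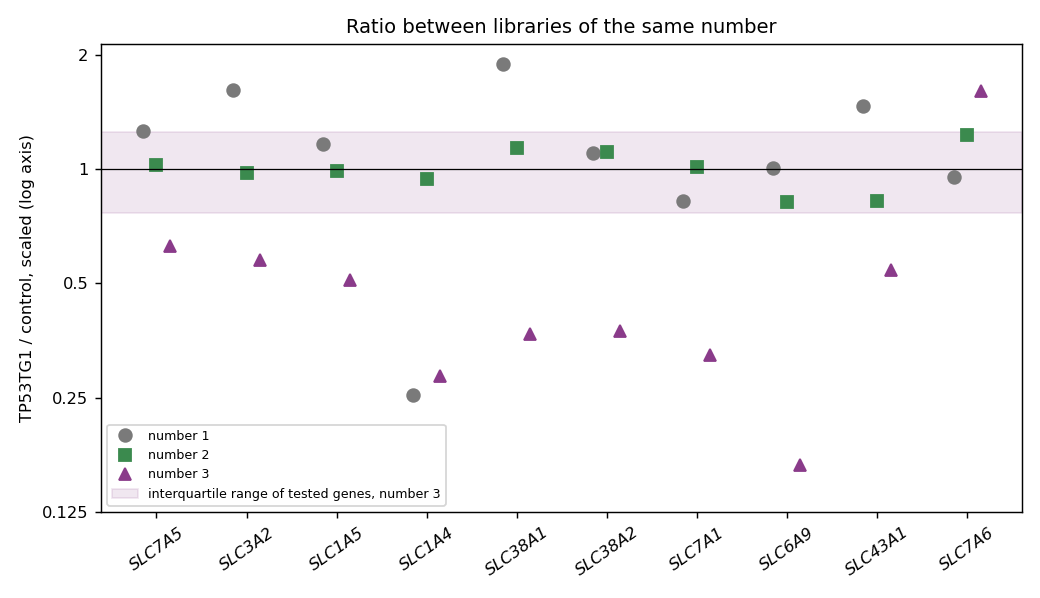
Ratio of TP53TG1 to control between libraries of the same replicate number after median-of-ratios scaling, on a log axis, with the marker shape and colour giving the number. The shaded band is the interquartile range of all tested genes in the pair numbered 3, and 9 of 10 members of that pair lie below it.

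Leaving out libraries moved the members' distance from the other genes, which was -0.25 with all 6. Without TP53TG1 replicate 3 the median of the 10 lay -0.16 from that of the tested genes. It lay -0.65 from it without TP53TG1 replicate 2, -0.67 without control replicate 1 and -0.57 without both libraries numbered 1. With TP53TG1 replicate 3 left out and scaling added, an alternative chosen after seeing the data, the log2 fold changes of SLC3A2, SLC1A5 and SLC43A1 turned to 0.26, 0.042 and 0.064. SLC1A4 stayed at or below -0.72 whichever library was left out. The limma fit called 0 of 10 members in each of these settings.

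Other genes of amino acid metabolism were read from the same fit. In the amino acid response list, which holds ATF4, the kinases that raise its translation and its known target genes, 27 of 29 genes were tested and 0 passed in either direction. Of the 27, 23 lay below the median of all tested genes, and the list median was -0.42 relative to it. Without TP53TG1 replicate 3 it was -0.089, with 17 of 27 below, and -0.014 when scaling was added. It was -0.74 without TP53TG1 replicate 1 and -0.85 without both libraries numbered 1. With the replicate block 8 passed, all lower, where 0.91% of tested genes were called lower and 0.584% higher, and with the block and scaling 0 did. The gene of the pseudokinase TRIB3, an ATF4 target, averaged 7.84 ± 6.32 FPKM in TP53TG1 and 30.5 ± 18.6 FPKM in control (SD, n = 3 each). Its groups did not overlap, as in 13.3% of tested genes (log2 fold change -1.90, SE 0.581, limma adjusted p = 0.748), and the value with scaling was -1.53. ATF4 had 275, 372 and 103 FPKM in TP53TG1, against 496, 455 and 399 FPKM in control. CEBPB, a bZIP partner of ATF4, averaged 56.8 ± 21.8 FPKM in TP53TG1 and 105 ± 11.01 FPKM in control, and the mitochondrial serine hydroxymethyltransferase gene SHMT2 197 ± 71.5 and 313 ± 27.6 FPKM (SD, n = 3 each). In the pair numbered 3 the median scaled ratio of this list was 0.329 and 23 of 27 genes were lower, beside the 0.442 of the 10 transporters. In pairs 1 and 2 it was 1.15 and 0.984.

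Of 29 other amino acid transporter genes, 13 were tested and 0 passed. Their median lay at -0.056 relative to all tested genes, and between -0.20 (without TP53TG1 replicate 3) and 0.11 (without control replicate 3) when 1 library was left out, and in the pair numbered 3 their median scaled ratio was 1.00, with 6 of 13 lower. The smallest p values were those of SLC43A2 (LAT4), another leucine carrier of the SLC43 family, SLC6A20, a proline carrier, SLC7A2, a cationic amino acid carrier, and SLC38A6, each at an adjusted p of 0.748 by limma. SLC43A2 averaged 12.1 ± 4.12 FPKM in TP53TG1 and 18.8 ± 2.61 FPKM in control, and SLC7A2 3.56 ± 2.64 and 7.11 ± 3.98 FPKM (SD, n = 3 each). Among 33 genes of amino acid sensing by mTORC1, 32 were tested, 0 passed, and the list median was -0.039 relative to all tested genes. SESN2, the leucine sensor gene that ATF4 also induces, had 8.39, 35.3 and 1.77 FPKM in TP53TG1, against 13.4, 40.5 and 42.8 FPKM in control, and was the 1 gene of this list that passed with the block (adjusted p = 0.000343, and 0.892 with scaling added). LARS, the cytosolic leucyl-tRNA synthetase gene, lay at 46.3 ± 6.03 FPKM in TP53TG1 and 68.3 ± 0.910 FPKM in control (SD, n = 3 each), with groups that did not overlap, as in the 13.3% of tested genes above. Its log2 fold change was -0.56 and -0.16 with scaling. Of 10 genes of glutamine use and MYC, 7 were tested and 0 passed. Their median was -0.32 relative to all tested genes, with 5 of 7 below that median, and -0.27 with scaling. When 1 library was left out it lay between -0.54 (without control replicate 1) and -0.095 (without TP53TG1 replicate 1). MYC, a transcription factor gene known to raise SLC7A5 and SLC1A5, had 64.7, 140 and 67.3 FPKM in TP53TG1, against 128, 185 and 199 FPKM in control. Its log2 fold change was -0.98 (SE 0.355, limma adjusted p = 0.748), and -0.57 with scaling.

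**Figure D4:**
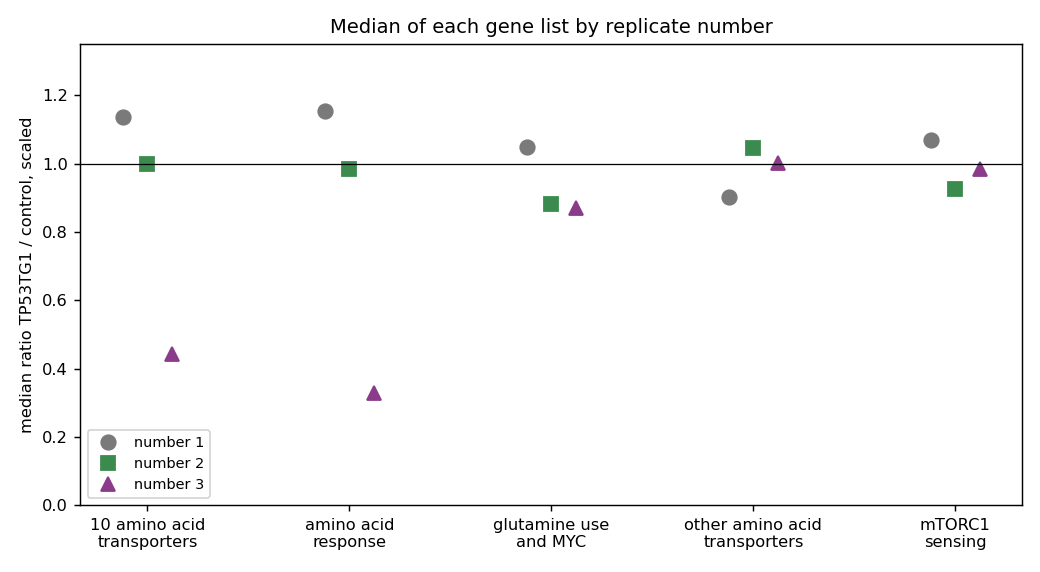
Median ratio of TP53TG1 to control after median-of-ratios scaling for the 10 transporters and 4 other gene lists, by replicate number. In the pair numbered 3 the medians of the 10 transporters (0.442) and of the amino acid response list (0.329) lie below those of the other 3 lists (0.869 to 1.00).

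Both ATF4 and MYC have known binding letters, which were searched in the RefSeq promoters of the members (GRCh38.p14, 17 starts for 10 genes). The C/EBP-ATF response element (CARE) was searched as TGATGNAAN on both strands, and the E-box bound by MYC and its relatives as CACGTG or CATGTG on both strands. The CARE letters lay in the 250 bases before a start in 1 member, SLC1A5, and in the longer window, to 50 bases after the start, in 5 members, SLC1A4, SLC1A5, SLC38A1, SLC3A2 and SLC7A1. That is 1 and 5 of the 17 member promoters. Of all genes with a RefSeq promoter 3.87% held them in the shorter window and 4.45% in the longer, or 3.13% and 3.61% of all promoters. E-box letters lay before a start in 4 members, SLC7A5, SLC43A1, SLC1A5 and SLC38A1, that is in 4 of the 17 member promoters, where 18.2% of all genes and 15.2% of all promoters held them. In the longer window they lay in 5 members, SLC3A2 being added, and in 5 of the 17 promoters. There 20.9% of all genes and 17.6% of all promoters held them. The stretches below show the CARE letters of SLC1A4, the member with the lowest log2 fold change, and of SLC1A5, and the E-box of SLC7A5 and of SLC43A1. Each is written 5′ to 3′ on the gene's strand with the matching letters in capitals. The coordinates in each line are those of the whole stretch. The annotation named after the strand (intron, exon and UTR, or upstream) is that of the capitals only. The last bases of the SLC43A1 stretch lie inside the gene.
SLC1A4 CARE, chr2:64989346-64989399, plus strand, an intron in GENCODE 29: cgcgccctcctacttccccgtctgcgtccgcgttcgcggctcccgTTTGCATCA
SLC1A5 CARE, chr19:46784893-46784921, minus strand, an exon and UTR in GENCODE 29: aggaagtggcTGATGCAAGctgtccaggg
SLC7A5 E-box, chr16:87869587-87869682, minus strand, upstream of its transcripts: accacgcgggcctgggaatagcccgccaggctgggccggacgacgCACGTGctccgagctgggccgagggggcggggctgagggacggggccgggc
SLC43A1 E-box, chr11:57515764-57515859, minus strand, upstream of its transcripts: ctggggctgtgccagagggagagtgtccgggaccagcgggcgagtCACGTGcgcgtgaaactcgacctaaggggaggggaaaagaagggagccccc

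In SLC1A4 the match, on the opposite strand, crosses a RefSeq start of the gene, from base -8 to base 1 relative to it. In SLC1A5 it begins 97 bases before the most downstream start, and the E-boxes of SLC7A5 and SLC43A1 begin 130 and 112 bases before a start. SLC6A9, SLC38A2 and SLC7A6 had neither motif in these windows, and bases outside them, such as introns further into a gene, were not searched. A match in letters is a description of these windows, and binding was not measured.

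The libraries numbered 1 stood apart from the others, and for the members this went with transcript length. SLC38A1, at a mean transcript length of 5540 nt weighted by FPKM, stood in the library numbered 1 at 0.179 of the mean of libraries 2 and 3 in TP53TG1 and at 0.0647 in control, after scaling. SLC7A1, the longest at 7207 nt, stood at 0.374 in TP53TG1 and 0.297 in control. The shortest, SLC3A2 at 1847 nt, stood at 2.22 in TP53TG1 and 1.04 in control. All 6 members over 4000 nt were below 1 in both groups. Of the shorter members, SLC1A5, SLC6A9 and SLC43A1 stood at 1.44, 1.205 and 2.01 in TP53TG1 but at 0.908, 0.526 and 0.921 in control. Protein-coding genes showed the same order: among 2032 genes of 4000 nt or more the median ratio was 0.507 in TP53TG1 and 0.560 in control, and among 4520 genes under 2000 nt it was 1.45 and 1.36. SLC1A4, at 4321 nt, stood at 0.232 in TP53TG1 and 0.551 in control. In TP53TG1 it lay, with SLC7A6, SLC38A1 and SLC7A1, below the median of genes of that length. The part of transcript length in the comparison of the groups was not tested.

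The transcripts of a member also shifted with the number. The longer SLC7A5 transcript ENST00000261622 (4537 nt) held 15.5%, 71.8% and 72.2% of the gene's FPKM in TP53TG1 replicates 1 to 3, against 30.2%, 75.5% and 76.4% in the controls. ENST00000565644 (3983 nt) held nearly all the rest and stood at 64.9, 54.3 and 36.8 FPKM in TP53TG1, against 78.4, 49.6 and 58.7 FPKM in control. Libraries numbered 2 and 3 thus had alike shares in both groups. SLC7A5P1 and SLC7A5P2, its pseudogene copies, were listed at 0 in 5 of 6 libraries each and at no more than 3.04 FPKM, which does not show how reads shared with SLC7A5 were assigned. In SLC1A5 the transcript ENST00000412532 (1750 nt) held 51.4%, 25.6% and 34.6% in TP53TG1, against 31.8%, 25.4% and 24.2% in control. When each member was represented by its transcript of highest mean in place of the sum, limma called 0 of 10.

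**Figure D5:**
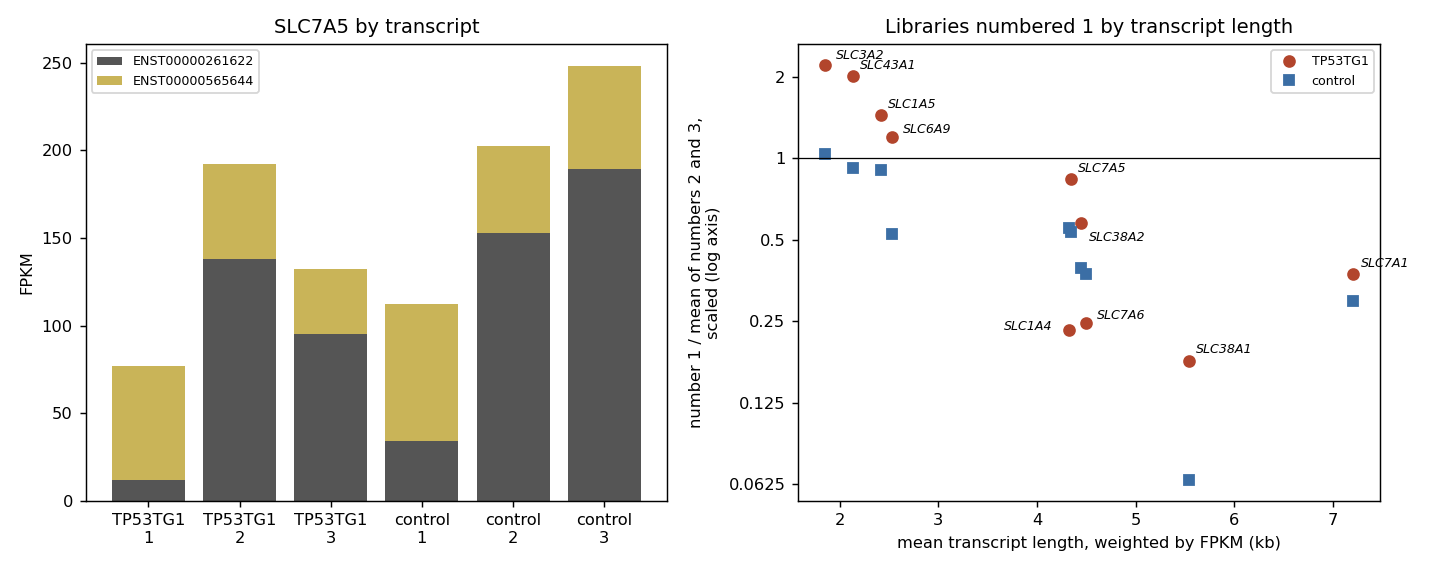
Left, FPKM of the 2 expressed SLC7A5 transcripts in each library, stacked. Right, level in the library numbered 1 over the mean of libraries 2 and 3 of the same group after scaling (log axis) against the FPKM-weighted transcript length of each member, in kb, with the TP53TG1 point labelled. Members over 4 kb lie below 1 in both groups, and TP53TG1 replicate 1 and control replicate 1 have the smallest share of the long SLC7A5 transcript. In control the shorter SLC1A5, SLC6A9 and SLC43A1 also lie below 1.

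Among 6471 tested genes of at least 10 FPKM, those whose scaled and centred log2 values over the 6 libraries lay closest to SLC7A5 were MBD6, a methyl-CpG-binding domain gene, PPM1B, a protein phosphatase gene, and NSD3, a histone methyltransferase gene. Their root mean square distances were 0.036, 0.052 and 0.058 on the log2 scale. The nearest other member was SLC1A5, at 0.398, and SLC3A2 lay at 0.567. These distances rest on 6 libraries. The closest genes were picked from 6471 and the nearest member from far fewer, so the distances are not on like terms.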

How the data were processed

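Each deposited file lists annotated transcripts with 1 number each, to 2 decimals, under a header that names no unit. These deposited values were taken as FPKM since they are not whole and their totals differ between libraries. The submitters' processing notes name HISAT2, StringTie and GRCh38.p10; versions, parameters and strand setting: not given in the sources used here. RNA was extracted with TRIzol and DNase-treated, and libraries were made with a TruSeq RNA kit, per the labels' protocols.

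Blank gene names (0 to 88000 rows of a file) were filled by transcript from the other files, and transcripts were summed per gene. Genes averaging 1 FPKM or more were fitted on log2(FPKM + 1) with limma 3.58.1 (mean-variance trend) in R 4.3.3 and adjusted over all tested genes by Benjamini-Hochberg, and called at 0.05. On this log2 scale changes of low genes come out too small. Single values were tested by exact two-sided permutation in scipy 1.17.1, Python 3.11.15. The fit was tested on simulated data. Coordinates and lengths are those of GENCODE 29 (GRCh38), and promoters those of RefSeq (GRCh38.p14), in which all 10 members matched. Depth was read from the most common product of value and length in single-transcript genes of 250 to 600 nt, and no interval was derived from it.

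The members, the gene lists and the alternatives were chosen with earlier results of these data known, so no list is independent support. All members are named, with up to 4 genes of smallest p per list. Deviations from the group means correlated at 0.710 for number 1, 0.562 for number 2 and 0.289 for number 3. Each exceeds 0.1, so the block fits and the ratios within numbers treated the numbers as pairs, from the data and not from the labels. The main fit, the other fits without the block and the exact permutation tests took no account of the pairs. TP53TG1 replicate 3 correlated slightly better with control replicate 2 (0.302) than with its own number, and TP53TG1 replicate 2 also correlated with control replicate 3 (0.400). Deviations cancel out within a group, so a shift shared by both libraries numbered 1 also raises the correlations among numbers 2 and 3. These correlations therefore cannot show that the libraries numbered 2, or those numbered 3, are pairs. The block leaves 2 residual degrees of freedom, with an infinite prior. Its p-values without scaling thus use the variance trend over all genes in place of each gene's own spread. Alternatives covered pseudocount, filter, scaling, block, transcript choice and each library left out. The value of 1 listed marker gene is not reported here.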

Additional observations from a re-analysis of the deposited data

How the results depend on the processing

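In 17 alternative settings the members called stayed at 0 except with the replicate block, which called 2 members, 8 amino acid response genes and 1 mTORC1 sensing gene (SESN2, which both lists hold). None of these calls held in the block fit with median-of-ratios scaling, and the cause was not tested. The prior also differed, being infinite in the block fit and 4.016 degrees of freedom with scaling added. The SE of SLC6A9 went from 0.337 to 0.453 and that of SLC1A4 from 0.337 to 0.334. Their log2 fold changes went from -1.25 to -0.87 and from -1.44 to -1.12. SLC7A6, at -0.044, turned to 0.28 with median-of-ratios scaling (also with the replicate block), 0.17 when rescaled to equal totals, 0.13 by its transcript of highest mean, 0.30 without both libraries numbered 1, and 0.47 when scaling was added to that. With TP53TG1 replicate 3 left out and scaling, SLC3A2, SLC1A5 and SLC43A1 turned to 0.26, 0.042 and 0.064. The settings that add scaling to left-out libraries were chosen after seeing the data. Leaving out 1 library at a time moved SLC38A1 between -1.79 and 0.49, SLC7A6 between -0.61 and 0.73, and the log2 ratio of SLC7A5 to SLC3A2 between -0.37 and 0.41. The log2 fold changes of SLC7A5, SLC1A4, SLC38A2, SLC7A1 and SLC6A9 stayed below 0 in all 17. The median of the members relative to all genes kept its sign in the 17, at -0.47 with no filter and -0.52 by the transcript of highest mean. The CARE letters were found in 1 member before the start and in 5 with the longer window, which is wider by construction. The 3 libraries a group limit precision: the 95% interval of SLC38A1 ran from -3.13 to 2.09.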
